A study of Mus musculus with 2 samples.

Results

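The distal part of the Dlk1-Dio3 microRNA (miRNA) cluster of the mouse comprised 37 listed miRNA genes, from Mir341 to Mir3072 on chromosome 12, whose miRNAs were read on the plus strand. Members were listed by gene symbol, with earlier results of these data known. Of the 37 genes, 36 had a row among the 1973 annotated miRNA genes counted, and Mir376b matched none. For 32 of the 36, the counts were those on the strand of the listed gene. The other 4 listed genes lie on the minus strand, opposite to a miRNA gene of the cluster, and the counts on that opposite strand were taken instead: Gm24321 for Mir409, Gm25252 for Mir376a, Mir299b for Mir299a and Gm25750 for Mir380. These 4 are called by the miRNA whose strand was read.

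Small RNA was sequenced from total RNA of hearts of healthy B6NCrl mouse embryos at day 15.5, with males and females pooled. The design held 1 group of 2 biological replicates, the first pooled from 78 embryos and the second from 62, so the spread between them is one between pools and not between single animals. The whole heart was used, and in such bulk RNA fewer cells of a type and less of a miRNA per cell cannot be told apart. With no second condition, the libraries answer which of the clustered miRNAs the embryonic heart contained, at what level, and how far the pools differed. All 4 heart muscle markers (Mir208a, Mir208b, Mir499 and Mir490) were detected, with a summed level of 62459 and 45592 counts per 1000000 in replicates 1 and 2.

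A miRNA gene gives a hairpin transcript from which the enzymes Drosha and Dicer cut a short duplex. Either strand of that duplex, called the 5p or 3p arm by its place in the hairpin, can enter an Argonaute protein and lower the output of mRNAs that pair with its seed, bases 2 to 8. The Dlk1-Dio3 region is imprinted: the protein-coding genes Dlk1, Rtl1 and Dio3 are expressed from the paternal chromosome, and the long noncoding RNAs Meg3, Rian and Mirg, with the miRNAs and snoRNAs among them, from the maternal one. The distal miRNAs are best known from brain, where Mir134 limits the size of dendritic spines, and from newborn liver, where their loss disturbs the supply of glucose after birth. In the heart and vessels, miR-410 and miR-495 have been described as promoting cardiomyocyte proliferation, and Mir329, Mir487b, Mir494 and Mir495 as restraining the growth of new vessels.

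The mature sequences of all 37 genes were found in RefSeq (GRCm38.p6), 70 in all, with both arms for 33 genes and 1 arm for Mir376c, Mir487b, Mir539 and Mir485. Those of the 5 hairpins with the highest levels are shown first, because these hairpins held most of the counts of the cluster. Capitals mark the seed, and sequences run 5′ to 3′. The counts are per hairpin and do not tell the arms apart.
mmu-miR-411-5p: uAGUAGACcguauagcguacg
mmu-miR-411-3p: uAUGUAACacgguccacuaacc
mmu-miR-487b-5p: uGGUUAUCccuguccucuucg
mmu-miR-369-5p: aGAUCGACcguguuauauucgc
mmu-miR-369-3p: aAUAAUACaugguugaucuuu
mmu-miR-409-5p: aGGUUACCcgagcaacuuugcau
mmu-miR-409-3p: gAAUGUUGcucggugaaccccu
mmu-miR-379-5p: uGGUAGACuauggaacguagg
mmu-miR-379-3p: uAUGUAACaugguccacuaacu

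The members differed in their seeds. The 70 mature sequences had 65 distinct seeds, and 5 seeds occurred in 2 genes each. The seed AUGUAAC was that of miR-379-3p and miR-411-3p, shown above, 2 genes next to each other on the chromosome. The seed GGUAGAC was that of miR-379-5p, also shown above, and miR-1193-5p. The remaining sequences with a shared seed follow, so that the bases outside it can be compared.
mmu-miR-1193-5p: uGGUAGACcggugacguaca
mmu-miR-1193-3p: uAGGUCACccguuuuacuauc
mmu-miR-370-5p: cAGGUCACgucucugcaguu
mmu-miR-494-5p: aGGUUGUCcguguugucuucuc
mmu-miR-410-5p: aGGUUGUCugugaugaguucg
mmu-miR-376c-5p: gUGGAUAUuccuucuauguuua
mmu-miR-376b-5p: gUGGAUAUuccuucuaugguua

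Both arms of Mir1193 thus carried a seed of another member, that of miR-379-5p on its 5p arm and that of miR-370-5p on its 3p arm. The seeds of 12 of the 70 mature sequences recurred in other mouse miRNAs of the table. For 3 of these, miR-758-5p, miR-496a-5p and miR-299a-3p, the other miRNA also lies within the interval of the cluster (miR-1197-5p, miR-453 and miR-299b-3p). The other 9 seeds recurred elsewhere, among them miR-329-3p with miR-362-3p and miR-410-3p with miR-344d-3p and miR-344e-3p. Of the cluster's mature sequences 77.1% began with U or A, compared with 66.1% of the 1604 other distinct mature sequences in the table.

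Beyond the seed, short words recurred between members. Of all words of 6 bases, 11 stood in the mature sequences of at least 5 members, and several of these overlap one another. ACACGG and GUUGCC are described here, chosen after the counts of all words were seen. The word ACACGG stood in 5 of the 70 mature sequences (7.14%) and in 2 of the 1604 others (0.125%). All 5 were 3p arms, and the word began at base 7 in 4 of them and at base 9 in miR-494-3p, so it lay mostly after the seed. They are shown with the word in capitals. It was searched on the strand of the mature RNA only.
mmu-miR-411-3p: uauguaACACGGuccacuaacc
mmu-miR-323-3p: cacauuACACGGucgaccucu
mmu-miR-494-3p: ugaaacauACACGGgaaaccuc
mmu-miR-485-3p: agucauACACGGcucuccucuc
mmu-miR-154-3p: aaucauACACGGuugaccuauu

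The word GUUGCC stood in 6 mature sequences of the cluster (8.57%), all 5p arms, and in 5 of the 1604 others (0.312%). Its 6 hairpins were Mir543, Mir495, Mir381, Mir154, Mir496a and Mir377. The hairpins with either word spanned most of the range of levels described next, from 41.7 CPM for Mir495 to 6141 CPM for Mir411. A shared word is a description of the letters and was not tested further.

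Every member that could be measured was detected in the embryonic heart, from a list drawn with earlier results of these data known. Levels were computed as counts per 1000000 counts on the strands of miRNA genes (CPM), of which there were 3439539 in replicate 1 and 5833156 in replicate 2, so that 1 count stood for 0.291 and 0.171 CPM. All 36 genes reached at least 10 counts in both libraries, and 31 reached at least 100 in both. Of all 1973 miRNA genes, 331 reached at least 10 in both. No other counted gene within the interval of the cluster did so. The members summed to 97749 counts in replicate 1, which was 2.84% of the total (exact binomial 95% interval 2.82 to 2.86%), and to 208373 counts in replicate 2, 3.57% (3.56 to 3.59%). These intervals cover counting error only, since no molecular identifiers were given. In CPM the sum was 28419 and 35722, with a mean of 32071 ± 5164 (SD, n = 2, as for all means below). The 4 members read on the opposite strand made up 16.5% of it in replicate 1 and 17.3% in replicate 2.

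A few hairpins held most of these counts. The highest 5 took 63.4% of the cluster's counts in replicate 1 and 63.1% in replicate 2, and the highest 10 took 86.8% and 86.7%. The lowest 18 together held 3.77% and 4.04%. Of the 36 members, 9 lay above 1000 CPM in both libraries and 12 below 100 CPM in both. Among all 1973 miRNA genes, 5 members were among the 50 with the highest mean level and 10 among the highest 100. The mean level of the highest member was 1353 times that of the lowest.

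**Figure D1:**
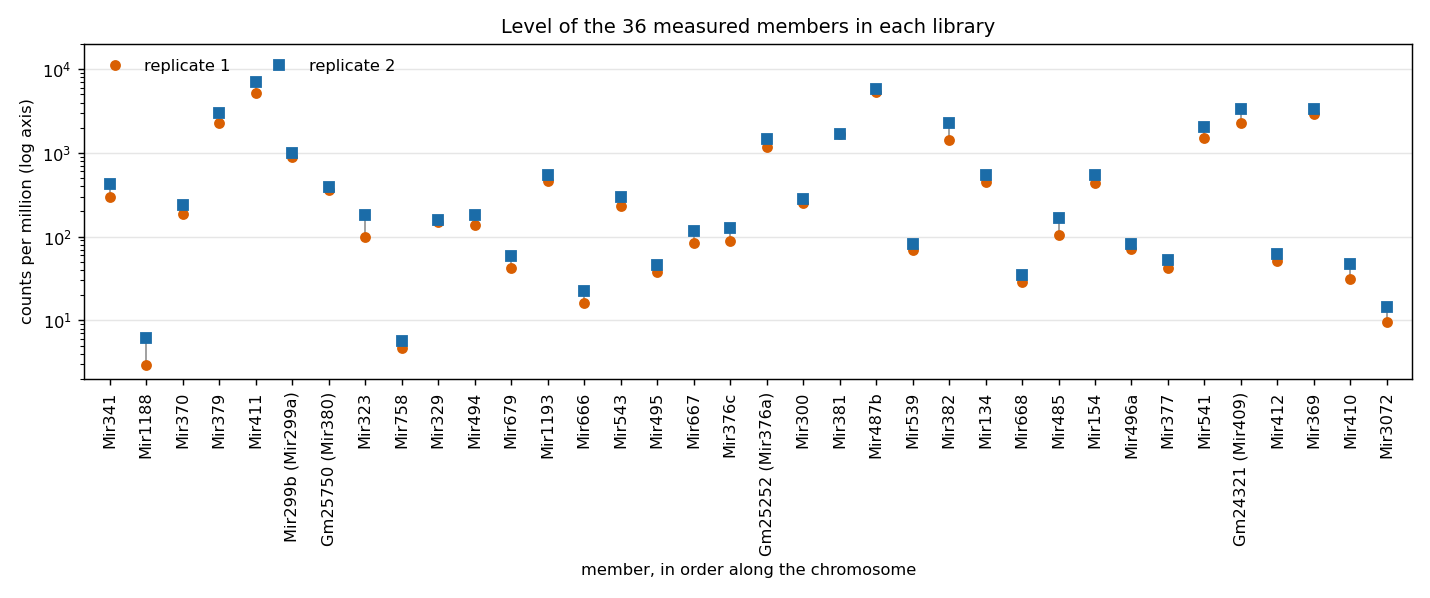
Level of each of the 36 measured members in counts per 1000000 (CPM, log axis), in chromosome order, with replicate 1 as circles and replicate 2 as squares; a line joins the 2 libraries of a member. High members such as Mir411 (5226 and 7057 CPM) and Mir369 (2910 and 3365 CPM) stand among low ones such as Mir758 (4.65 and 5.66 CPM), and the libraries differ far less than the members do.

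Mir411 had the highest mean level. Its hairpin lies at chr12:109710175-109710256 (mm10), outside any annotated gene on its strand, and it has been described as restraining regulators of muscle cell differentiation. It received 17975 counts in replicate 1 and 41164 in replicate 2, or 5226 and 7057 CPM, with a mean of 6141 ± 1295. This placed it 24th among all miRNA genes of the heart libraries.

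Mir487b, at chr12:109727333-109727414, also outside any gene, came next. It is one of the miRNAs of the region studied in the adaptation of arteries to poor blood supply. Its counts were 18256 and 33899, or 5308 and 5811 CPM, with a mean of 5560 ± 356. Mir487b was above Mir411 in replicate 1 and below it in replicate 2, so the order of the highest 2 was not fixed by these libraries.

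Mir369, Mir409 and Mir379 followed. Mir369 (chr12:109743418-109743496), whose 3p arm has been described as binding AU-rich elements of mRNAs, lay at 2910 and 3365 CPM, with a mean of 3138 ± 322 from 10009 and 19631 counts. Mir409, read opposite Gm24321 (chr12:109743158-109743237), lay at 2265 and 3319 CPM, with a mean of 2792 ± 745. Mir379 (chr12:109709060-109709125), the first hairpin of the dense run of miRNA genes, lay at 2298 and 2994 CPM, with a mean of 2646 ± 492. The values of these 3 overlapped from each to the next, and Mir409 and Mir379 changed places between the libraries.

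Of the next 5, Mir382 was counted at 1427 and 2267 CPM, Mir541 at 1519 and 2017 CPM and Mir381 at 1666 and 1683 CPM. Their means were 1847 ± 594, 1768 ± 352 and 1675 ± 12.1 CPM, and their library values overlapped. In CPM, Mir381 thus differed little between the pools and Mir382 more; the comparison after scaling, given further on, orders the members otherwise. Mir376a, read opposite Gm25252, whose transcripts are known targets of adenosine editing in brain, had 1167 and 1475 CPM, with a mean of 1321 ± 218. Mir299a, read opposite Mir299b, had 882 and 999 CPM, with a mean of 941 ± 83.0. The library values of Mir376a and Mir299a did not overlap with each other or with those of their neighbours in the order.

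By its means, a middle group lay between 100 and 1000 CPM. Mir134 had 455 and 551 CPM, Mir1193 had 457 and 547, and Mir154 had 436 and 551. Their means of 503 ± 67.8, 502 ± 63.4 and 493 ± 81.1 CPM differed by less than the spread between pools. Mir380, read opposite Gm25750, had 361 and 395 CPM (mean 378 ± 23.8), and Mir341, which lies first in the cluster, had 299 and 422 CPM (mean 360 ± 87.6), again overlapping.

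Mir300 and Mir543 followed with means of 268 ± 24.6 and 264 ± 47.9 CPM. Mir370 had 189 and 240 CPM, with a mean of 214 ± 36.1. Below it, Mir494 had 139 and 183 CPM, with a mean of 161 ± 31.3. Mir329 had a mean of 152 ± 4.61 CPM, Mir323 of 141 ± 58.1 and Mir485 of 136 ± 45.5. Mir376c had 89.0 and 126 CPM, with a mean of 108 ± 26.4, and Mir667 a mean of 100 ± 22.9 CPM. From Mir494 to Mir667 the library values of each member overlapped with those of the next.

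The low members were counted with less precision. Mir496a, Mir539, Mir412, Mir679, Mir377 and Mir495 had means of 76.4 ± 8.11, 75.6 ± 8.24, 56.7 ± 7.82, 50.7 ± 11.2, 47.4 ± 6.96 and 41.7 ± 5.52 CPM. Mir539, described as lowering the mitochondrial protein prohibitin 2 in heart muscle cells, was thus near the lower end of the cluster. Mir410, the last hairpin of the dense run, rested on 108 and 275 counts, or 31.4 and 47.1 CPM, with a mean of 39.3 ± 11.1. Mir668 followed at 31.9 ± 4.38 CPM, Mir666 at 19.3 ± 4.25 and Mir3072 at 12.0 ± 3.40. The 2 members under 10 CPM were Mir758, with 16 and 33 counts (5.15 ± 0.711 CPM), and Mir1188, with 10 and 36 counts (4.54 ± 2.31 CPM). The heart miRNAs miR-410 and miR-495 of the background above both stood in the lower part of the order, ranked 31 and 30 of the 36.

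The order of levels was nearly the same in both pools, with a Spearman rank correlation of 0.995 across the 36 members as a description. Its steps were less certain. Of the 35 pairs of neighbours in the order, 13 had library values that did not overlap and 22 had values that did. In 13 of the 35 pairs the lower member by mean was the higher one in 1 library.

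Position along the chromosome gave no ordering of the levels. The hairpins lie within chr12:109611500-109747960, a span of 136 kb. Mir341, Mir1188 and Mir370 lie together at its start, a gap of 90.7 kb follows, and 32 of the measured genes stand within the 34.7 kb from Mir379 to Mir410. Spearman's rho between order along the cluster and level was -0.068 in replicate 1 and -0.057 in replicate 2 over 35 members with a RefSeq hairpin and a count, a description over hairpins that share the same libraries.

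Genes next to each other differed about as much as genes taken anywhere in the cluster. The median size of the log2 ratio of counts was 2.68 between the 35 pairs of chromosome neighbours and 2.75 over all 630 pairs of members. Of the 35 neighbour pairs, 22 differed by over 2 on the log2 scale, 11 by over 4 and 4 by under 1. The SD of a pair's log2 ratio over the libraries had a median of 0.12 and reached at most 0.52, so most of these ratios were well separated from the spread between pools.

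**Figure D2:**
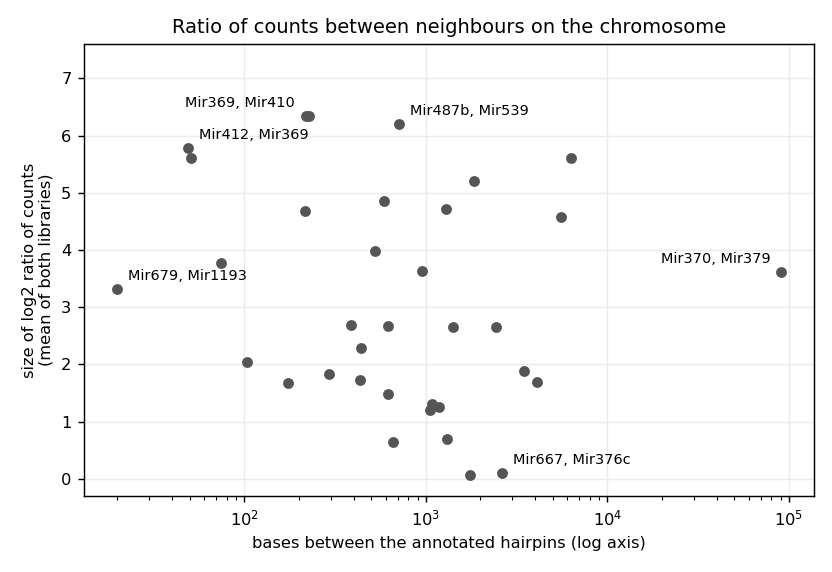
Size of the log2 ratio of counts between each pair of neighbouring members (mean of both libraries) against the number of bases between their annotated hairpins (log axis), 1 point a pair. Mir412 and Mir369, 49 bases apart, differ by 5.79, and Mir1188 and Mir370, 6316 bases apart, by 5.61.

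Some of the widest contrasts lay between hairpins close to each other. Mir412 stands between Mir409, 51 bases before it, and Mir369, 49 bases after it. Mir369 had 56.9 and 54.1 times the counts of Mir412 in replicates 1 and 2, a log2 ratio of Mir412 over Mir369 of -5.79 ± 0.05. Mir409 had 44.3 and 53.3 times the counts of Mir412. A further 218 bases on from Mir369, Mir410 was again low, and Mir369 exceeded it 92.7-fold and 71.4-fold (log2 ratio 6.34 ± 0.26). High and low hairpins thus alternated over short distances, and did so in both pools.

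The same was seen elsewhere in the run. Mir487b had 76.1 and 71.4 times the counts of Mir539, 714 bases away (log2 ratio 6.20 ± 0.06). Mir341 exceeded Mir1188, 226 bases on, 103-fold and 68.4-fold, where the low count of Mir1188 limits the precision (log2 ratio 6.34 ± 0.38). Mir1193 exceeded Mir679, only 20 bases before it, 10.7-fold and 9.33-fold. At the other extreme, Mir376c had 1.06 and 1.09 times the counts of Mir667, 2620 bases before it. Distance did not order these contrasts in one clear direction: the median size of the log2 ratio was 3.32 for the 13 pairs within 500 bases and 2.66 for the 22 pairs farther apart, with a rho of -0.26 between gap and ratio.

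Host transcripts likewise held high and low members side by side. In GENCODE M21 the first 3 members lie in introns of Rian (chr12:109603940-109661716) and summed to a mean of 580 CPM. The 20 members from Mir379 to Mir539 lie outside any annotated gene on the plus strand and summed to 20551 CPM. The last 13 lie in Mirg (chr12:109729764-109749460), 9 overlapping an exon of some annotated transcript with 5811 CPM and 4 in introns (Mir154, Mir496a, Mir541 and Mir409) with 5130 CPM. Within the Mirg exon group levels ran from 12.0 CPM for Mir3072 to 3138 CPM for Mir369.

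Hairpins that look most alike also differed in level. Comparing the RefSeq hairpins within the cluster, 7 pairs were each other's most similar member. Mir411 and Mir758 were 73.5% identical, yet Mir411 had 1123 and 1247 times the counts of Mir758. Mir487b had 38.2 and 31.7 times the counts of Mir494 (71.8% identity), Mir382 had 20.4 and 27.8 times those of Mir539 (72.4%), and Mir154 had 11.5 and 12.1 times those of Mir495 (69.1%). The contrast was smaller for Mir379 over Mir380 (6.36 and 7.58, 71.2% identity) and for Mir381 over Mir300 (6.65 and 5.90, 73.8%). Mir376c and Mir376b were the most alike at 80.7%, but Mir376b had no count to compare.

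Shared stretches bear on how far these counts can be trusted, because reads matching several places are in no gene's count. Such reads were 33.0% and 30.1% of all reads. Of the 36 hairpins found in RefSeq, 6 shared a stretch of at least 20 bases with another mouse hairpin. Mir376c shared 31 bases with Mir376b, covering 18 of the 22 bases of both 5p arms. Mir376b shared 20 bases with Mir487b, Mir411 shared 21 bases with Mir758, and the sequence of Mir299a shared 21 bases with that of Mir299b, covering 21 of the 22 bases of miR-299a-5p. No mature sequence of the cluster was contained whole in another of the 1005 mouse hairpins searched. The levels of Mir376c, Mir411, Mir758, Mir487b and Mir299a may therefore have lost reads, to an extent that was not tested.

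Hairpin composition and level were compared as a description. The GC content of the 36 hairpins ran from 29.1 to 72.3% with a median of 43.3%, below the median of 51.7% over all 1005 hairpins, and 24 of the 36 were under 50%. Across the 35 members with a count, rho with level was -0.22 and -0.21 for GC content and 0.12 for the predicted folding energy in both libraries.

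Counts on the strand not used were 0 in both libraries for 35 of the 36 members, the exception being Mir299b with 4 and 10. A count of 0 in 3439539 or in 5833156 still allows an expected count of up to about 3. Among the miRNA genes counted, the interval held 7 further ones that were not members, all on the plus strand. Mir1197 had 3 and 10 counts, Mir544 had 3 and 6, Gm27379 had 1 in each and Gm23912 had 0 and 1, while Mir882, Mir654 and Mir453 had none. Each of the 36 members thus had more counts than any of these 7 genes in the same library. As the list was drawn with earlier results of these data known, this contrast is no support for it.

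Replicate 2 held more of the cluster than replicate 1. In CPM all 36 members were higher in replicate 2, as were 252 of the 380 other genes tested (66.3%). After TMM scaling (trimmed mean of M values), which sets the libraries to each other by their middle genes, 32 members were higher in replicate 2 and 4 in replicate 1. The median log2 ratio of replicate 1 over replicate 2 was -0.17 for the members (quartiles -0.30 and -0.08) and -0.03 for all 416 genes tested (quartiles -0.37 and 0.23).

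Each gene was compared between the libraries with a two-sided exact conditional binomial test, adjusted by Benjamini-Hochberg over the 416 genes with at least 10 counts in sum. Such a test asks whether a difference between 2 libraries exceeds counting noise, and compares no conditions. At an adjusted p under 0.05, 17 of the 36 members (47.2%) were called higher in replicate 2 and 2 (5.56%) higher in replicate 1. The background over all genes tested was 25.0% called higher in replicate 2, 21.6% called higher in replicate 1 and 46.6% called in either direction. The share of members called higher in replicate 2 was thus above the background share and that called higher in replicate 1 below it, a description with no test of the list. With total counts in place of TMM the split was 24 to 0, against 38.2% and 11.5% of all genes tested, since that scaling moved the median of all genes by -0.17, to -0.21. A change of scaling moves all genes alike, so the gap of -0.13 between the median of the members and that of all genes was the same under each. It was -0.10 with no filter on low counts and -0.15 with at least 100 counts in sum.

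**Figure D3:**
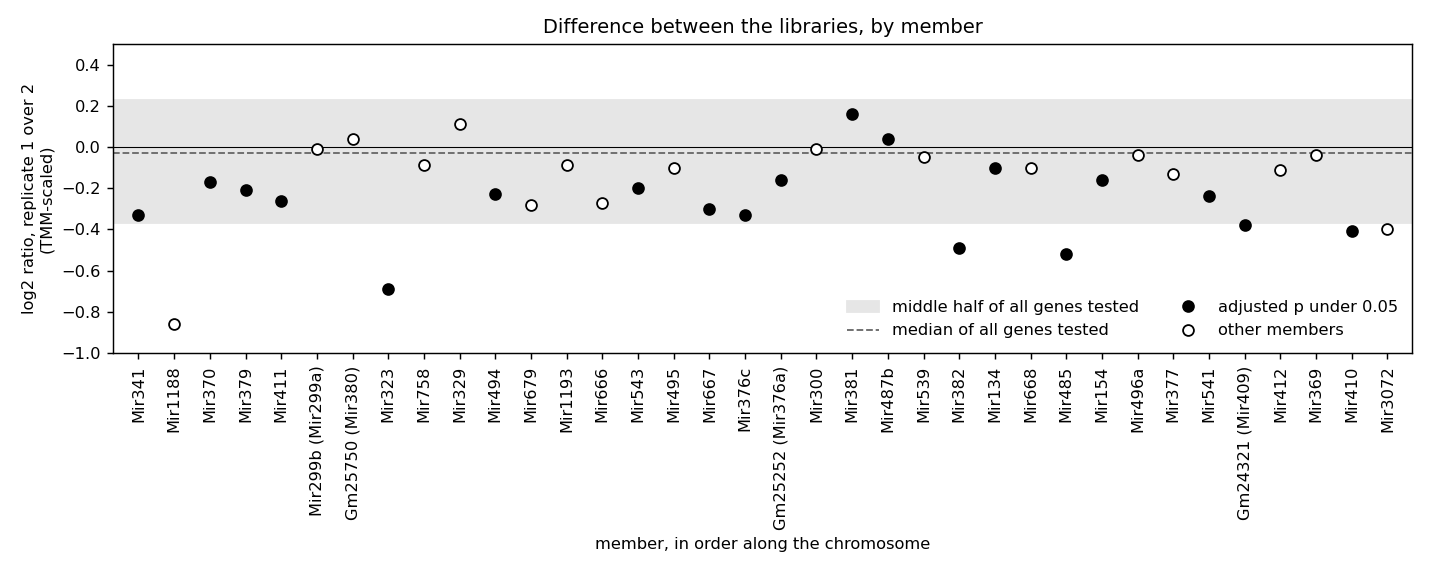
TMM-scaled log2 ratio of replicate 1 over replicate 2 for each member in chromosome order, filled where the adjusted p is under 0.05 and open for the others. The dashed line and grey band are the median (-0.03) and the quartiles (-0.37 and 0.23) of all genes tested; 32 of the 36 members lie below 0 and 2 filled points, Mir381 and Mir487b, lie above it.

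The called differences were small. The largest toward replicate 2 was that of Mir323, with 99.7 and 182 CPM, a log2 ratio of -0.69 and an adjusted exact p of 5.40e-15. Mir485 followed with 104 and 168 CPM, a log2 ratio of -0.52 and an adjusted exact p of 7.92e-09. Mir382 was the most shifted of the high members, with a log2 ratio of -0.49 and an adjusted exact p of 5.38e-97. In the other direction, Mir381 had a log2 ratio of 0.16 (adjusted exact p = 2.25e-10) and Mir487b of 0.04 (adjusted exact p = 0.00416). Both calls rest on the scaling, since with total counts Mir381 was at -0.01 and Mir487b at -0.13.

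Among the rest of the highest members, Mir409 (log2 ratio -0.38), Mir411 (-0.26), Mir541 (-0.24), Mir379 (-0.21) and Mir376a (-0.16) were called higher in replicate 2. Mir369 at -0.04 and Mir299a at -0.01 passed no threshold, with adjusted exact p-values of 0.0784 and 0.901. The largest ratio of any member, -0.86 for Mir1188, rested on 10 and 36 counts and was not called (adjusted exact p = 0.156). Mir1193 and Mir379, which share a seed, had ratios of -0.09 and -0.21, and Mir494 and Mir410, which share another, had -0.23 and -0.41. Mir370 stood at -0.17, Mir376c at -0.33 and Mir380 at 0.04.

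Markers of other tissues moved with the same libraries. All 7 epithelial miRNAs (the Mir200 family, Mir203 and Mir205) were called higher in replicate 2, with a summed level of 1821 CPM in replicate 1 and 6297 in replicate 2 and a median log2 ratio of -1.65. The neural list summed to 174 and 591 CPM, with 3 of 5 tested genes called higher in replicate 2, while Mir124a-1, Mir124a-2, Mir124a-3 and Mir9-2 were at 0 in both libraries and Mir9-3 had 1 and 9 counts. Mir124a and Mir9 have several gene copies whose reads can match more than 1 place and so be in no count, and these low values do not show absence. Endocrine Mir375, at 146 and 1035 CPM, and liver Mir122, at 87.2 and 309, were also called higher in replicate 2. In contrast 3 of the 4 heart muscle genes and endothelial Mir126a (79217 and 67775 CPM) were called higher in replicate 1. So were both smooth muscle genes, Mir145a at 1110 and 899 CPM and Mir143 at 82454 and 88393. Mir143 was thus higher in replicate 2 in CPM, and its call rests on the scaling (log2 ratio 0.07). Erythroid Mir451a, with 1975 and 564 CPM, was the most shifted of the markers called higher in replicate 1 (log2 ratio 1.98). The other erythroid gene, Mir144, had 401 and 422 CPM and was not called (log2 ratio 0.10). Leukocyte Mir223 (336 and 471 CPM) and skeletal muscle Mir206 (73.3 and 102 CPM) were called higher in replicate 2. The fibroblast list summed to 5537 and 8868 CPM, with 2 of its 4 genes called higher in replicate 2 and 1 in replicate 1. Whether these other cells have a part in the higher sum of the cluster in replicate 2 was not tested.

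Other miRNA clusters give a scale for the values. The proximal part of the same Dlk1-Dio3 region, at Meg3 and Rtl1, had 13 of 14 listed genes in the files, of which 10 were detected. It summed to 8229 and 11010 CPM, so the distal part held 3.45 and 3.24 times its counts. The 2 sums were not counted alike. The distal one includes the 4 members read on the opposite strand, and without them its mean was 26639 ± 4095 CPM in place of 32071 ± 5164. No proximal gene was read on the opposite strand, and Mir136 had no row. The proximal genes had a median log2 ratio between libraries of 0.02, with 4 of 11 tested genes called higher in replicate 2 and 1 in replicate 1. Its leading gene, Mir127, had 3698 and 5314 CPM, below Mir411 and Mir487b in both libraries.

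The proliferation cluster Mir17-92 reached a sum of 23507 and 25030 CPM with only 6 genes. Its highest and lowest members differed 3221-fold, against 1353-fold in the distal cluster and 79.8-fold among the detected proximal genes. Of the 107 miRNA genes within Sfmbt2, 9 were detected, with a sum of 2525 and 3085 CPM. Median levels of detected genes were 188 CPM in the distal cluster, 426 in the proximal one, 1810 in Mir17-92 and 148 in Sfmbt2. The lowest Mir17-92 gene, Mir19b-1 with 14 and 30 counts, has a mature sequence in common with Mir19b-2 on another chromosome. Its count, the 3221-fold spread and the sum and median of Mir17-92 may therefore reflect dropped reads. Sfmbt2 likewise holds numbered gene copies, such as Mir467a-1 and Mir467a-2, whose reads can match more than 1 place. Its undetected genes, sum and median therefore do not show absence or low output. No test of the difference between clusters was made.

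**Figure D4:**
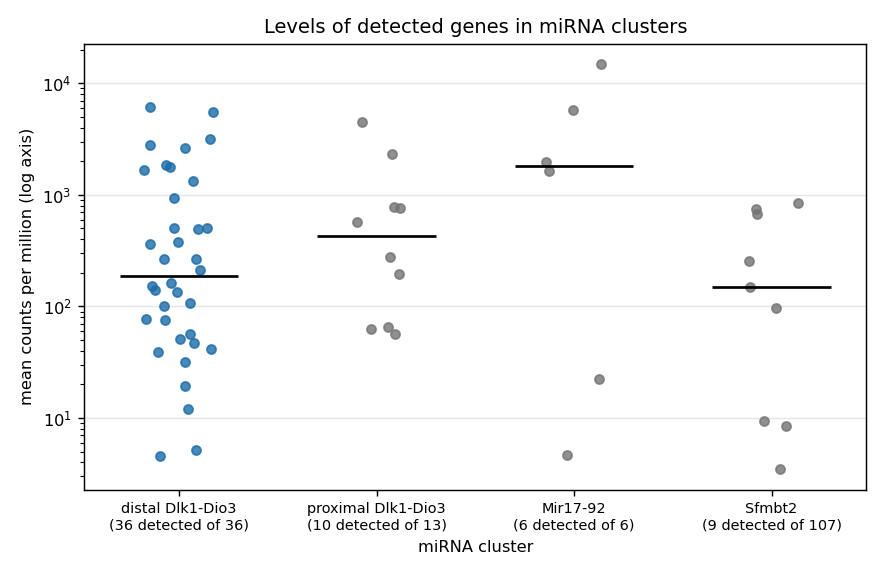
Mean level over both libraries in counts per 1000000 (CPM, log axis) of each detected gene in 4 miRNA clusters, with 1 point a gene and a line at the median. The 36 distal Dlk1-Dio3 genes, in blue, run from 4.54 to 6141 CPM with a median of 188, and the 6 Mir17-92 genes, from 4.61 to 14840 CPM with a median of 1810.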

How the data were processed

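Per the labels, small RNA of day 15.5 mouse hearts was sequenced in 2 libraries. The deposited counts are whole, unnormalized reads per miRNA gene in 3 columns. These were read as either strand, the gene's strand and the opposite strand from their layout and values, since no header names them, and every level rests on that reading. Per the text files deposited with them, reads were placed on mm10 with GENCODE M4; aligner, trimming and counter: not given in the sources used here. Lines naming no gene stayed out of totals: multiply matching reads were 33.0% and 30.1% of 7056606 and 11735546 reads, unmapped 13.1% and 15.1%, and reads on no gene's strand 5.11% and 5.07%. Symbols and hosts came from GENCODE M21 (1894 of 1973 IDs matched), and sequences from RefSeq (GRCm38.p6), where 36 members had a hairpin. CPM used the gene-strand total, to which the opposite-strand counts of 4 members were not added.

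Libraries were scaled by TMM in edgeR 4.0.16 (factors 0.942 and 1.06) under R 4.3.3. Genes with at least 10 counts summed were compared by the exact conditional binomial test (two-sided, Benjamini-Hochberg adjusted); 0.5 was added per library in log2 ratios. Shares have exact Clopper-Pearson 95% intervals. Alternatives were total counts, DESeq2 1.42.0 size factors, other count filters, another CPM denominator, other detection limits, leaving out the 4 opposite-strand members and leaving out a library. Hairpins were folded with RNAfold 2.7.2; the remaining steps ran in scipy 1.17.1, pandas 2.3.3 and numpy 2.4.6 under Python 3.11.15. The library test was tested on simulated data. A planned count of genome matches per mature sequence was replaced by a search of 1005 RefSeq hairpins.

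Every member is named with a level. Values per library are given for the 10 highest, members sharing a seed, those with the largest called ratios in each direction (up to 3) and the 4 read on the opposite strand. Members and lists were chosen with earlier results of these data known.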

Additional observations from a re-analysis of the deposited data

Results flagged for a closer look

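Signal appeared in data that the levels of the cluster do not use for 1 member. Mir299b, whose opposite strand was read as Mir299a with 3034 and 5830 counts, had 4 counts on its own strand in replicate 1 and 10 in replicate 2. Both are above 3, the expected count that a count of 0 still allows, which is no threshold for signal. Mir299a and Mir299b share 21 bases, covering 21 of the 22 bases of miR-299a-5p. Which of the 2 hairpins gave these reads was not tested. The other 35 members had none on the strand not used in either library.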

How the results depend on the processing

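Scaling by total counts left 0 members called higher in replicate 1, called 24 higher in replicate 2 (38.2% of all genes tested were so called) and moved the median log2 ratio of the members to -0.34 and that of all genes tested to -0.21. It turned the ratios of Mir487b and Mir380 (counts opposite Gm25750) to -0.13 each, of Mir381 to -0.01 and of Mir329 to -0.06. The other 32 members, all higher in replicate 2 after TMM scaling, kept their direction. Scaling by total counts newly brought 6 members, Mir380 among them, past the threshold, while Mir381 lost its call. With DESeq2 size factors 14 members were called higher in replicate 2 (21.2% of all genes), 2 higher in replicate 1, and 3 lost their call: Mir134 (adjusted exact p = 0.260), Mir370 (0.105) and Mir410 (0.0501). With no count filter 16 members were called higher in replicate 2 (14.5% of all genes), with at least 100 counts 17 (33.8%), and 2 higher in replicate 1 each time. Without the 4 members read on the opposite strand the sum was 26639 ± 4095 CPM and the highest 5 held 72.5%, both by construction. Leaving out a library gave sums of 28419 to 35722 CPM, shares of the highest 5 of 63.1 to 63.4% and 36 detected members each time; 31 had at least 100 counts in both libraries. Depth limits Mir758 and Mir1188, whose 95% intervals in replicate 1 ran from 2.66 to 7.55 and from 1.39 to 5.35 CPM. Only 2 pools were sequenced, and no paired analysis was possible because there is 1 group.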
